A study of Mus musculus with 1931 samples.

Results

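The deposited single-cell table held 28 of the 35 imprinted genes that lie outside the *Igf2*-*H19* pair and were chosen by name for this account, among 20999 genes in all. *Rian*, *Mirg*, *Rtl1*, *Peg10*, *Kcnq1ot1*, *Snrpn* and *Nespas* were not analysed here. Single mouse cells came from 1 pool of RtL-embryoids, 3D structures in which 3 embryonic stem cell (ESC) lines rearrange into embryo-like compartments, and from 3 flat (2D) cultures. Kermit ESCs, whose GFP is driven by *Oct3/4*, give the Epi-like (epiblast-like) compartment. In iGATA6 ESCs, which were also marked with mCherry, doxycycline at 2 µg/ml switches on a *Gata6* transgene and they form the VE-like (visceral endoderm-like) compartment. In 5-Factor ESCs the same drug induces *Cdx2*, *Ets2*, *Gata3*, *Eomes* and *Tfap2c*, and these cells form the ExE-like (extraembryonic ectoderm-like) compartment. Doxycycline was in the medium of the whole RtL-embryoids and was withdrawn before harvest, so the Epi-like cells were exposed to it too. The 2D cultures were Kermit ESCs in 2i/LIF medium, iTSCs (induced trophoblast stem cells, from 5-Factor ESCs) and iXEN cells (induced extraembryonic endoderm cells, from iGATA6 ESCs), the latter 2 kinds being induced with doxycycline. Each transgene line is 1 line, so the line, the lineage and the gate by which a cell was sorted (GFP for Epi-like, mCherry for VE-like, the surface protein CD40 for ExE-like cells) cannot be told apart.

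Only cells in which 2500 or more genes were above 0 entered. These were 982 cells of the 3D pool on plates 3, 4 and 5, of which 32% were Epi-like (wells 1 to 8 of each plate row), 32.1% VE-like (wells 9 to 16) and 35.9% ExE-like (wells 17 to 24), and 424 cells of the 2D cultures, 33.5% of them ESCs, 33.3% iXEN cells and 33.3% iTSCs. The RtL-embryoid pool and each 2D culture is 1 sample and the plates split that pool technically, so no test between conditions was possible and each 3D value is given with its plates. A level is a mean over cells in TP10k, which is TPM (transcript abundance corrected for transcript length) rescaled to a sum of 10000 in each cell. A gene was called different between 2 groups where the means differed at least 2-fold, at least 1 mean reached 0.1 TP10k and plates 3, 4 and 5 all went the same way. The read depth is unknown, since TPM keep none. The median number of genes per cell was 4823 in Epi-like, 5348 in VE-like and 5396 in ExE-like cells, but 9093.5, 8699 and 8537 in ESCs, iXEN cells and iTSCs, so a weakly expressed gene could appear in more 2D cells at the same level. GEO's labels do not name the compartment of a 3D well, and the well columns were checked against markers. All 6 Epi markers had their highest 3D mean in wells 1 to 8, all 7 VE markers in wells 9 to 16 and all 7 ExE markers in wells 17 to 24. By the marker list with the highest summed level in a cell, 99.7% of the Epi-like cells were led by the Epi list and 96.5% of the VE-like cells by the VE list. By this measure the ExE-like block was mixed, with 54.4% of cells led by the ExE list, 35.7% by the Epi list and 9.92% (35 cells) by the VE list. *Sox2* and *Zfp42*, which stand on the Epi list, had means of 0.312 and 2.1 TP10k there, of a summed mean of 2.89. The other Epi markers were low there, as *Pou5f1* at 0.331 and *Nanog* at 0.111, against 14.2 and 3.83 in Epi-like cells. A lead of the Epi list in this block thus does not name a cell as Epi-like. *Pou5f1* had 4.53 in VE-like cells. The summed means of the mesoderm, fibroblast and differentiated trophoblast lists were at most 0.089 TP10k in any group, against 32.6 for the Epi list in Epi-like cells. Shares of cells carry exact (Clopper-Pearson) 95% intervals. Where a gene was found in 0 cells, the limit given is instead 3 counts of the total. Both cover counting error only.

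An imprinted gene is transcribed mainly from the maternal or mainly from the paternal chromosome. In many cases this rests on a germline DNA methylation mark of either copy, kept through the methylation changes of the early embryo. Such a mark was not measured here for any gene, and some members may lack it. Imprinted genes lie in clusters that share a control region, often with a long non-coding RNA, and many of them steer growth of the embryo and placenta. Some are imprinted in extraembryonic tissue alone. The present values hold no allele information, so they show the total level of a gene and not which copy was active. Where there is such a methylation mark, it is kept by ZFP57 and ZFP445, zinc finger proteins that recruit TRIM28. ZFP57 binds the methylated hexamer TGCCGC.

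The stretches before the RefSeq start sites (GRCm38.p6, Gencode vM21 for gene ends) of 3 members that differed strongly between groups, and the interval between the divergent starts of *Peg3* and *Usp29*, are shown because the mark's reader and the results on these genes can be set beside them. They are written 5' to 3' on the strand of the named gene. Capitals mark TGCCGC or GCGGCA, the same hexamer on the other strand. The *Meg3* stretch is chr12:109540746-109540995 (plus strand), that of *Mest* chr6:30737800-30738049 (plus strand), that of *Plagl1* chr10:13090582-13090787 (plus strand) and that of *Peg3* chr7:6730422-6730582 (minus strand).
Meg3: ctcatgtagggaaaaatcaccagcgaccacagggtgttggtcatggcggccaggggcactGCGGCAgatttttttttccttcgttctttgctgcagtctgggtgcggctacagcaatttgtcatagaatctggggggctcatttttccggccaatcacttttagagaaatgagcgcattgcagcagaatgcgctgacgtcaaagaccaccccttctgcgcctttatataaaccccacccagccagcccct
Mest: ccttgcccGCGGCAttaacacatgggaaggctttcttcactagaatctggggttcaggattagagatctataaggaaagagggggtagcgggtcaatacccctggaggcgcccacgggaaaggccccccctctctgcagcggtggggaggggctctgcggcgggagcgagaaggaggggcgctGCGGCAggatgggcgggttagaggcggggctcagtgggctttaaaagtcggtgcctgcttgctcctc
Plagl1: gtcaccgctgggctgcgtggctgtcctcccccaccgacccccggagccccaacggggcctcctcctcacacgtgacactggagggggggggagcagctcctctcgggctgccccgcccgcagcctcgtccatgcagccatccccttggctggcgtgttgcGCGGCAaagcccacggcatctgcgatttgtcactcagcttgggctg
Peg3: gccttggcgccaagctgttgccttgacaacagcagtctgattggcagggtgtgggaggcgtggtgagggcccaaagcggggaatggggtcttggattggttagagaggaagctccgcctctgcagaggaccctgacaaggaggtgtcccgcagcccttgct

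The hexamer occurred once before *Meg3*, at 2 places before *Mest*, once before *Plagl1* and at 0 places between *Peg3* and *Usp29*. Where a gene had several start sites, the stretch with the most hexamers was printed, so its presence there was fixed by that choice. Another window of *Meg3* and another of *Mest* held 0. RefSeq promoter windows, from 250 bases before to 50 bases after a start, were matched for 25 of the 28 members by symbol, with 41 windows. Of these windows, 8 held the hexamer on either strand (19.5%), against 11.6% of all 32851 windows. The 7 genes concerned were *Grb10*, *Meg3*, *Mest*, *Nnat*, *Plagl1*, *Zdbf2* and *Zim1*. Members' windows held 16 CpG in the median and all windows held 7. The windows of *Peg3* and *Usp29*, which lie on opposite strands, shared 87.7% of their length. These matches describe letters and not binding.

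**Figure D1:**
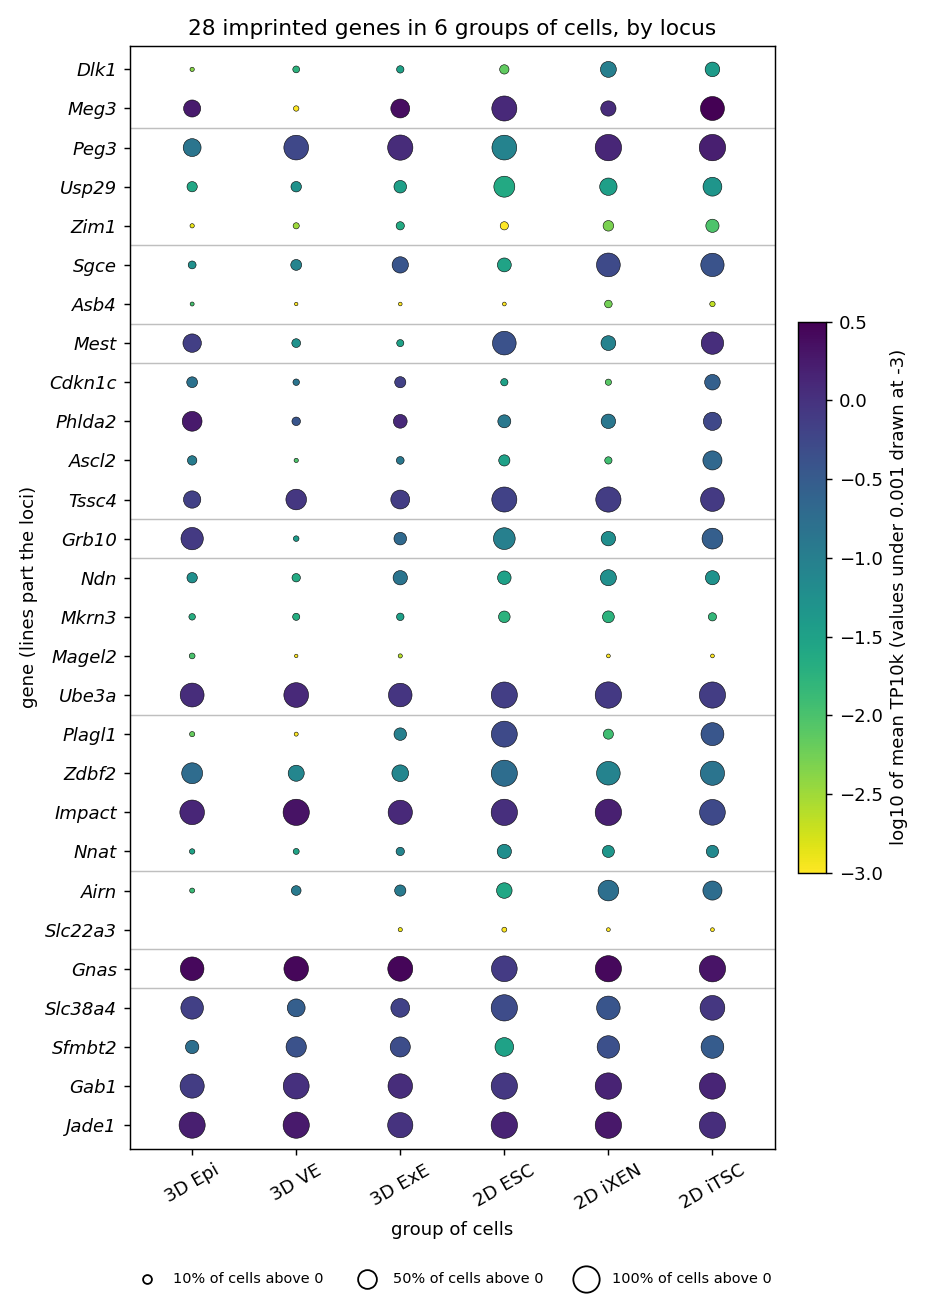
Mean level (colour, log10 of TP10k) and share of cells above 0 (dot size) of the 28 imprinted genes (rows, by locus) in the 3 3D groups and the 3 2D cultures (columns), with no dot where all cells were at 0. *Meg3* is nearly blank in 3D VE alone, *Plagl1* is strong in 2D ESC and iTSC, and *Ube3a*, *Gnas*, *Gab1* and *Jade1* are broad.

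*Meg3* showed the largest difference between 3D compartments among the members called. It is a maternally expressed long non-coding RNA of the *Dlk1*-*Meg3* cluster (chr12:109541001-109571726), which also holds the paternally expressed *Dlk1*, a membrane protein related to Notch ligands. Mean *Meg3* was 1.79 TP10k in Epi-like cells (1.73, 2.26 and 1.36 on plates 3, 4 and 5) and 2.38 in ExE-like cells (2.72, 2.16 and 2.24). In VE-like cells it was 0.000406 (0.000883, 0.000183 and 0.000106), far under the other compartments on every plate.

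Single cells either lacked *Meg3* or mostly held a clear level of it. It was above 0 in 41.1% of Epi-like cells (95% interval 35.6 to 46.7%), where the median of the cells above 0 was 2.9 TP10k. Of the ExE-like cells 50.7% had it (45.4 to 56%), with a median of 3.18 in those cells. Just 9 VE-like cells had any (2.86%, 1.31 to 5.35%), and the highest of them stood at 0.0472 TP10k. At 0.5 TP10k or more, which depends less on depth, stood 36.3% of Epi-like, 42.5% of ExE-like and 0% of VE-like cells. A fold against the VE-like cells is not given, because their mean rests on those 9 traces.

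The 2D cultures of the same lines differed from this. In iXEN cells, the 2D counterpart of the same iGATA6 line, *Meg3* was above 0 in 46 cells (32.6%, 25 to 41%) with a mean of 1.18 and a highest cell of 17.6 TP10k. Kermit ESCs in 2D had it in 90.1% of cells with a mean of 1.26, and iTSCs in 82.3% with a mean of 3.08. At 0.5 TP10k or more stood 69% of ESCs and 36.3% of Epi-like cells. Per cell above 0 the ESC median was 1.03 and the Epi-like median 2.9. Weak levels can be missed in cells with fewer genes, and these medians were not compared at a like gene number. Among cells of 5000 to 8500 genes, the shares were 47.1% in Epi-like cells, 3.92% in VE-like cells, 56.4% in ExE-like cells, 76.2% in 21 ESCs, 32.1% in iXEN cells and 80% in iTSCs, so the low VE-like value also held at that gene number. Within the CD40-gated block, 10 of the 35 cells led by VE markers had *Meg3* (28.6%), next to 51.6% of those led by ExE and 55.6% of those led by Epi markers. Outside VE-like cells, *Meg3* went closely along with no other member. Its largest Spearman coefficient with any member found in at least 15% of the cells was between 0.12 and 0.19 in size. In VE-like cells it was 0.09, but with *Meg3* in just 9 cells that value cannot decide.

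*Dlk1* stayed low in 3D, with means of 0.00426 in Epi-like, 0.0179 in VE-like and 0.0312 TP10k in ExE-like cells and shares of 1.27 to 6.52%. It was highest in iXEN cells at 0.102 TP10k, in 50 cells (35.5%), against 0.0386 in iTSCs and 0.00726 in ESCs. The iXEN mean barely passed the minimum of 0.1 TP10k, and *Dlk1* was no longer called when the highest 1% of cells were left out.

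**Figure D2:**
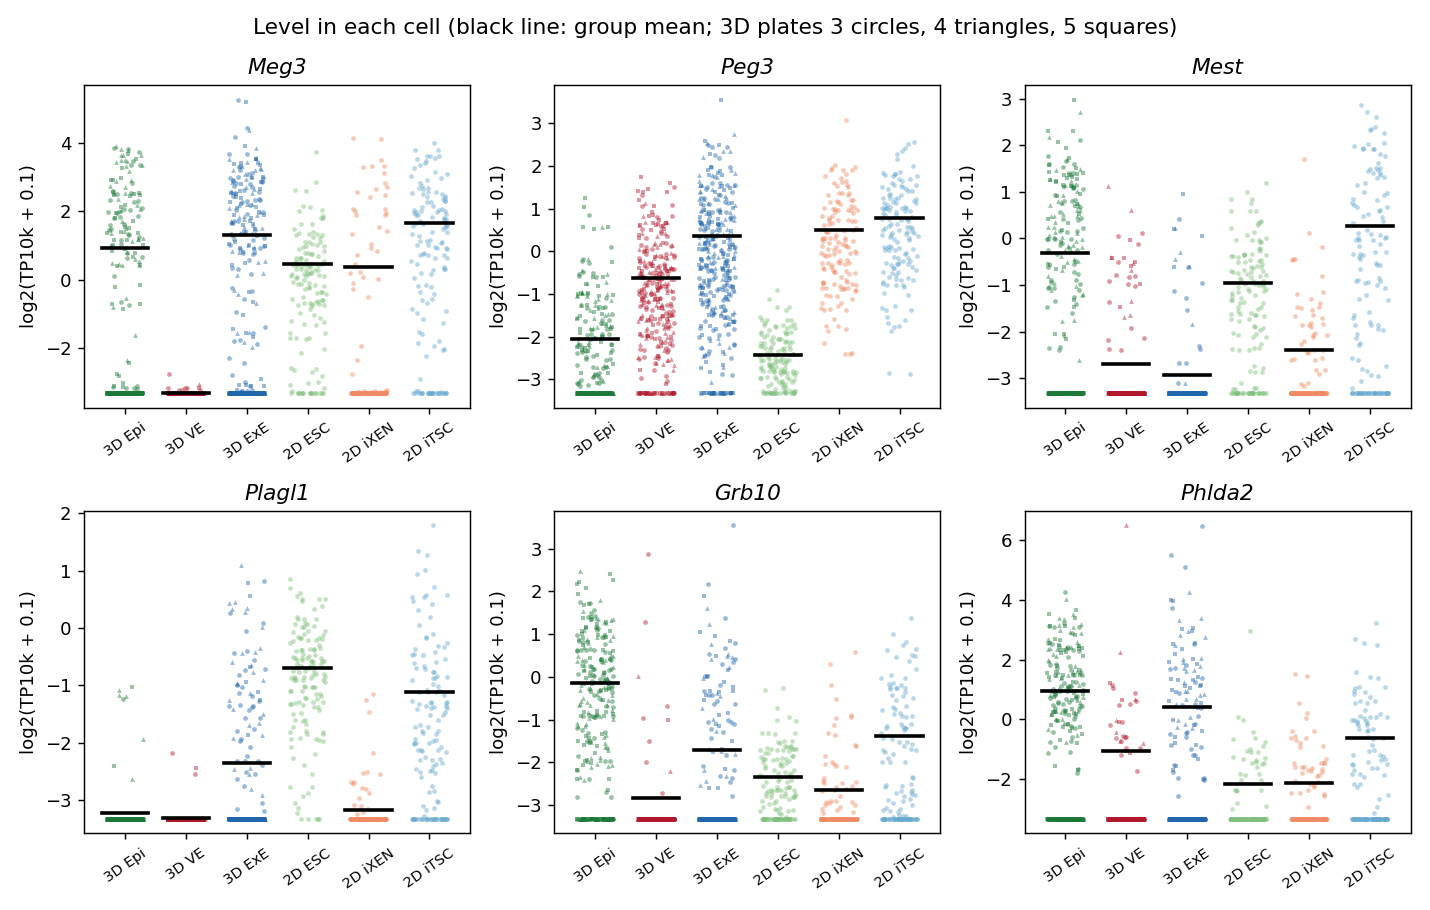
Level of 6 members in each cell as log2(TP10k + 0.1), with the lowest row of points at 0, black lines for group means and, for 3D cells, circles, triangles and squares for plates 3, 4 and 5. *Meg3* splits Epi-like, ExE-like and iXEN cells into an upper and a lower set and reaches no more than 0.0472 TP10k in VE-like cells, while single cells of 89.8 and 88.4 TP10k stand out for *Phlda2*.

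*Peg3* rose from the pluripotent to both extraembryonic groups, in 3D and in 2D. The gene (chr7:6703892-6730431) is paternally expressed and codes for a large zinc finger protein. Its mean was 0.14 TP10k in Epi-like cells (0.132, 0.122 and 0.165 on plates 3, 4 and 5), 0.547 in VE-like cells (0.517, 0.441 and 0.699) and 1.18 in ExE-like cells (1.1, 1.28 and 1.16). The 3 compartments did not overlap by plate. VE-like cells stood 3.91-fold over Epi-like cells (3.61- to 4.23-fold by plate) and ExE-like cells 8.43-fold (7.03- to 10.5-fold). The 2.15-fold difference between the extraembryonic compartments was not called without plate 4, nor among cells led by their own marker list. In 2D it was 0.0848 in ESCs, 1.31 in iXEN cells (15.5-fold higher) and 1.61 in iTSCs (19-fold higher), with values above 0 in 100% of iXEN cells and of iTSCs. ESCs also had it in 88% of cells, but the highest of them reached just 0.434 TP10k.

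*Usp29*, paternally expressed from the opposite strand, starts next to *Peg3* at the printed interval. Its means were 0.026, 0.0528 and 0.0342 TP10k in Epi-like, VE-like and ExE-like cells and 0.0246, 0.0348 and 0.047 in ESCs, iXEN cells and iTSCs, all under the minimum for a call. These group means of *Usp29* lay within a narrow range, while *Peg3* spanned 0.0848 to 1.61. On plates 3, 4 and 5 *Usp29* was 0.049, 0.00282 and 0.0274 in Epi-like cells. It was 0.0543, 0.0591 and 0.044 in VE-like cells and 0.0331, 0.0516 and 0.0174 in ExE-like cells. The 5 highest cells held 66.8%, 68.5% and 36.4% of these 3D sums, so the means are too unsteady to show that *Usp29* was even. *Zim1*, a maternally expressed zinc finger gene of the cluster, had means of 0.000726 to 0.0239 TP10k, the highest in ExE-like cells, where 5 cells held 72.6% of the sum.

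*Sgce*, the paternally expressed epsilon-sarcoglycan gene (chr6:4674350-4747207), was 6.7-fold higher in ExE-like cells (0.382 TP10k; 0.357, 0.385 and 0.405 by plate) than in Epi-like cells (0.057; 0.0635, 0.0485 and 0.0593). VE-like cells were at 0.0841 (0.0869, 0.0816 and 0.0836), above Epi-like cells on each plate but by less than 2-fold. In 2D both induced lines were high, iXEN cells at 0.516 (17.4-fold over the 0.0297 of ESCs) and iTSCs at 0.398 (13.4-fold). iXEN cells therefore stood 6.14-fold over 3D VE-like cells (5.94- to 6.33-fold by plate), while the mean of iTSCs lay within the range of the ExE-like plates. Among iXEN cells, *Peg3* and *Sgce* had a Spearman coefficient of 0.41 across the cells of that 1 culture. Both fell with the summed Epi markers there (-0.47 for *Peg3* and -0.44 for *Sgce*), whose part in the pair was not tested. *Asb4*, a maternally expressed neighbour, was found in 1 to 10 cells of each group.

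*Mest* went the other way from *Peg3* in 3D. It codes for a hydrolase-like protein and is paternally expressed (chr6:30723547-30748465, overlapped on the other strand by *Copg2*). Its mean was 0.707 TP10k in Epi-like cells (0.661, 0.642 and 0.817 on plates 3, 4 and 5), 0.0537 in VE-like cells (0.062, 0.0563 and 0.0413) and 0.0312 in ExE-like cells (0.0282, 0.0272 and 0.0385). Epi-like cells were 13.2-fold over VE-like (10.7- to 19.8-fold by plate) and 22.6-fold over ExE-like cells (21.2- to 23.6-fold). The share of cells above 0 was 48.1% (42.4 to 53.8%) in Epi-like, 9.84% (6.79 to 13.7%) in VE-like and 5.95% (3.72 to 8.95%) in ExE-like cells.

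In 2D the order was another one. iTSCs had the highest mean of all groups at 1.1 TP10k, in 71.6% of cells, followed by ESCs at 0.412 (80.3%) and iXEN cells at 0.0898 (30.5%). The 5-Factor line thus stood 22.6-fold under the Kermit line in 3D and 2.67-fold over it in 2D, and iTSCs stood 35.2-fold over ExE-like cells (28.5- to 40.4-fold by plate). In ExE-like cells *Mest* was low under either marker list, with 0.0305 in the cells led by ExE and 0.0403 in those led by Epi markers. The iTSCs were split by leading list too, with 44 cells (31.2%) led by the Epi list. *Mest* was 1.38 in the iTSCs led by ExE and 0.477 in those led by Epi markers, against 0.412 in ESCs. *Plagl1* was also alike in these Epi-led iTSCs and ESCs (0.578 and 0.521 TP10k). *Peg3* (1.55 against 0.0848) and *Meg3* (2.41 against 1.26) were higher in the Epi-led iTSCs than in ESCs.

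*Grb10*, an adaptor protein that dampens insulin and growth factor signalling and is maternally expressed outside neurons (chr11:11930508-12038683), also changed direction between 3D and 2D. Epi-like cells had 0.802 TP10k (0.806, 0.708 and 0.893 by plate), ExE-like cells 0.207 (0.287, 0.149 and 0.18) and VE-like cells 0.0392 (0.0983, 0.00962 and 0.00406). The share of cells above 0 was 71.3%, 21.8% and 3.17%. Cells of the 5-Factor line were 3.88-fold under Epi-like cells in 3D (2.81- to 4.95-fold by plate) and, as iTSCs at 0.284, 2.9-fold over the 0.0977 of 2D ESCs. The 2 genes differed in which line changed between 3D and 2D. For *Grb10* it was the Kermit line (8.2-fold), while the 5-Factor line was not called (1.37-fold). For *Mest* it was the 5-Factor line (35.2-fold), while the Kermit line was not called (1.71-fold). With a fold of 3 the 2D call was lost for both genes. The iTSCs led by ExE markers had 0.316 and those led by Epi markers 0.213. A single VE-like cell of plate 3 held 7.18 TP10k, without which the VE-like mean was 0.0164.

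**Figure D3:**
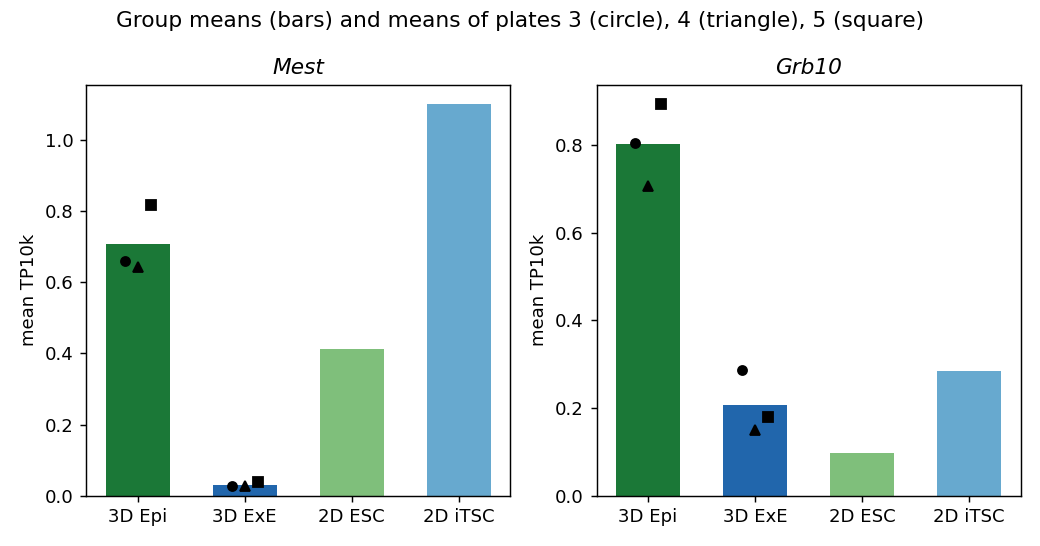
Mean TP10k of *Mest* and *Grb10* (bars from 0) in the Kermit line (3D Epi, 2D ESC) and the 5-Factor line (3D ExE, 2D iTSC), with plate means of 3D cells as points. In both genes the 3D Epi bar is the higher of the 3D pair (0.707 and 0.802) and the 2D iTSC bar the higher of the 2D pair (1.1 and 0.284).

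The growth-restraining genes of the *Cdkn1c* cluster on distal chromosome 7 were low in the iGATA6 line and carried by few cells in ExE-like cells. *Phlda2*, a maternally expressed gene that limits placental growth (chr7:143501545-143503150), had a mean of 1.83 TP10k in Epi-like cells (1.8, 1.94 and 1.74 by plate) and was above 0 in 55.7% of them. In 2D ESCs it was 0.124 (23.2% of cells), 14.8-fold lower than in Epi-like cells (14.1- to 15.6-fold by plate). ExE-like cells had 1.25 (1.75, 0.927 and 1.03) in 26.3% of cells, and iTSCs had 0.548 in 46.8%.

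VE-like cells showed 0.379 TP10k of *Phlda2*, with 0.141, 0.921 and 0.0543 on plates 3, 4 and 5. A single cell of plate 4, which was led by the ExE markers, held 89.8 TP10k of *Phlda2*, 29.2 of *Cdkn1c* and 2.41 of *Ascl2*. Without it the VE-like mean of *Phlda2* was 0.0946, close to the 0.13 of iXEN cells. The call against ExE-like cells was lost without plate 3.

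*Cdkn1c*, which codes for the cyclin-dependent kinase inhibitor p57, is maternally expressed (chr7:143458339-143461050). Its mean was 0.674 TP10k in ExE-like cells (0.967, 0.751 and 0.28 by plate), 0.15 in Epi-like cells (0.0855, 0.158 and 0.205) and 0.143 in VE-like cells (0.0828, 0.32 and 0.0159). The ExE-like and Epi-like shares of cells above 0 were nearly the same, 16.7% (13 to 21%) and 15.6% (11.8 to 20.1%), and 5 cells held 64.2% of the ExE-like sum. The 4.48-fold difference of means (1.37- to 11.3-fold by plate) thus came with a like share of positive cells over the whole block, and it was not called on the mean of ln(TP10k + 1). That share averages over cells led by different marker lists. ExE-like cells led by ExE markers had 1.11 TP10k in 22.9% of cells, and those led by Epi markers 0.12 in 7.14%. Just 15 VE-like cells (4.76%) had *Cdkn1c*, and without the cell named above the mean was 0.0501. In 2D it was 0.277 in iTSCs, 0.0319 in ESCs and 0.00817 in iXEN cells. Within iTSCs, *Cdkn1c* and *Phlda2* had a Spearman coefficient of 0.52 across cells. *Phlda2* was found in 81.2% of iTSCs with *Cdkn1c* and in 29% of those without.

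*Ascl2*, a maternally expressed transcription factor needed for the spongiotrophoblast, was 0.109 TP10k in Epi-like cells and 0.13 for the ExE-like group (0.251, 0.108 and 0.0227 by plate) but 0.00961 in VE-like cells, where 4 cells had it. Its call was lost without plate 5 against Epi-like cells and without plate 3 against ExE-like cells. In 2D it was 0.216 in iTSCs (51.8% of cells), 0.0325 in ESCs and 0.0114 in iXEN cells. *Tssc4*, a small gene at the edge of the cluster, was even over the 6 groups, with means of 0.647 to 0.889 TP10k.

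*Plagl1* showed the largest difference between 3D and 2D cells of the Kermit line among the 17 members compared. It is a paternally expressed zinc finger gene (chr10:13060504-13131694) that acts on other imprinted genes. ESCs in 2D had 0.521 TP10k in 96.5% of cells, and Epi-like cells 0.00664 (0.00324, 0.0119 and 0.00452 by plate) in 8 cells (2.55%, 1.11 to 4.96%). The ESC mean was 78.5-fold higher, and at least 43.6-fold higher against each plate. In the 5-Factor line, iTSCs had 0.363 (75.2% of cells), 3.74-fold over the 0.097 of ExE-like cells (0.109, 0.138 and 0.0421; 21.5% of cells). The iGATA6 line was low in both settings, with 0.000887 in VE-like and 0.0117 in iXEN cells. Among cells of 5000 to 8500 genes, 95.2% of 21 ESCs and 4.35% of Epi-like cells had *Plagl1*, so the difference held at a like gene number.

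*Zdbf2*, a paternally expressed zinc finger gene (chr1:63273265-63314576) linked to growth, had 0.187 TP10k in Epi-like cells (0.155, 0.168 and 0.236 by plate), 2.42-fold over the 0.0772 of VE-like and 2.37-fold over the 0.0789 of ExE-like cells. In 2D it was 0.182 in ESCs, 0.0848 in iXEN cells and 0.142 in iTSCs. *Impact*, a paternally expressed regulator of translation, was in 84.4 to 100% of the cells of every group, with the highest mean in VE-like cells (2.11; 1.88, 1.84 and 2.67 by plate) and the lowest in iTSCs (0.534). It was 2.93-fold higher in iXEN cells than in iTSCs. *Nnat*, a paternally expressed small membrane protein gene of neurons, lay between 0.0292 and 0.0818 TP10k in all groups, under the minimum for a call.

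In the *Snrpn*-*Ube3a* cluster, *Ube3a* (a ubiquitin ligase imprinted in neurons alone) was even, with means of 0.732 to 1.25 TP10k and 79.6 to 100% of cells. *Snhg14* overlaps *Ube3a* on the other strand, and the libraries keep no strand. *Ndn*, a paternally expressed growth suppressor, was 0.141 in ExE-like cells (0.182, 0.135 and 0.103 by plate), 2.5-fold over Epi-like cells (0.0563) and 5.98-fold over VE-like cells (0.0235), while iTSCs had 0.0513. *Mkrn3* lay between 0.015 and 0.0335 TP10k. *Magel2* was found in 11 Epi-like cells and in 0 to 4 cells of each other group; its count of 0 in ESCs allows a share of up to 2.11% (3 counts of the total).

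Genes imprinted mainly or only in extraembryonic tissue did not form 1 pattern. *Sfmbt2*, a paternally expressed Polycomb protein gene needed for trophoblast (chr2:10370510-10595253), followed *Peg3*, with 0.171 TP10k in Epi-like cells (0.177, 0.178 and 0.157 by plate), 0.418 in VE-like cells (0.384, 0.364 and 0.516) and 0.489 in ExE-like cells (0.395, 0.513 and 0.563). In 2D it was 0.0301 in ESCs, 0.445 in iXEN cells and 0.315 in iTSCs. *Slc38a4*, a paternally expressed amino acid transporter gene of the placenta (chr15:96994820-97055956), was at 0.677 in Epi-like cells, close to the 0.653 of ExE-like cells, and lower in VE-like cells (0.289; 0.35, 0.255 and 0.257). In 2D it was 0.499, 0.383 and 0.882 in ESCs, iXEN cells and iTSCs. *Gab1*, an adaptor of receptor signalling, had means of 0.762 to 1.45 TP10k and *Jade1*, a subunit of a histone acetyltransferase complex, 0.974 to 1.88. Neither was called in any comparison.

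*Airn*, the paternally expressed antisense RNA of *Igf2r* (chr17:12741311-12860136), was 0.0136 in Epi-like, 0.117 in VE-like and 0.119 TP10k in ExE-like cells and 0.026, 0.173 and 0.181 in ESCs, iXEN cells and iTSCs. *Igf2r* ran 0.0608, 0.397 and 0.214 and 0.0678, 0.291 and 0.205 in the same order. The libraries keep no strand, so reads of *Airn* and *Igf2r* over the shared stretch cannot be told apart. One VE-like cell of plate 3 held 16.8 TP10k of *Airn*, without which the VE-like mean was 0.0639, under the minimum for a call, and the call against Epi-like cells was lost without plate 3. *Slc22a3*, a cation transporter gene in the same cluster, was found in 0 to 4 cells of each group. The counts of 0 in Epi-like and VE-like cells allow shares of up to 0.955% and 0.952% by the same limit.

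*Gnas*, the gene of the stimulatory G protein alpha subunit and of several imprinted transcripts (chr2:174284320-174346744), was even in 3D at 2.69, 2.71 and 2.82 TP10k. ESCs in 2D had 0.772, 3.48-fold under Epi-like cells (2.99- to 4.37-fold by plate), and iXEN cells and iTSCs had 2.62 and 2.06. Its antisense partner *Nespas* overlaps it on the other strand, so the same limit of strand holds.

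Across the members, 3D VE-like cells held the fewest members per cell in the median. A median of 8 of the 28 members was above 0 in a VE-like cell, against 10 in cells of both other 3D groups and 14 to 16 in the 2D cultures, where more genes of any kind were detected. Against Epi-like cells, 17 members reached the minimum level. In VE-like cells 3 of them were higher (*Peg3*, *Airn*, *Sfmbt2*; 17.6%) and 7 lower (*Meg3*, *Mest*, *Phlda2*, *Ascl2*, *Grb10*, *Zdbf2*, *Slc38a4*; 41.2%), where of all 8989 genes tested 15.7% were higher and 15.7% lower. The higher share of members is thus near that of all genes.

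In ExE-like cells against the same Epi-like cells, 6 of 19 members were higher (*Peg3*, *Sgce*, *Cdkn1c*, *Ndn*, *Airn*, *Sfmbt2*; 31.6%) and 3 lower (*Mest*, *Grb10*, *Zdbf2*; 15.8%), against 14.5% and 8.36% of 9180 genes. Both comparisons share the Epi-like cells, so their calls are not counted against each other. Between the extraembryonic compartments, 0 of 17 members were higher in VE-like cells and 9 were lower than in ExE-like cells (*Meg3*, *Peg3*, *Sgce*, *Cdkn1c*, *Phlda2*, *Ascl2*, *Grb10*, *Ndn*, *Slc38a4*; 52.9%), against 8.33% and 14% of 9002 genes. The median log2 difference of these members was -1.11 and that of all genes tested -0.15.

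In 2D, iXEN cells were higher than ESCs in 6 of 17 members (*Dlk1*, *Peg3*, *Sgce*, *Airn*, *Gnas*, *Sfmbt2*; 35.3%) and lower in 3 (*Mest*, *Plagl1*, *Zdbf2*; 17.6%), against 20% and 15% of 8988 genes. iTSCs were higher than ESCs in 11 of 19 members (*Meg3*, *Peg3*, *Sgce*, *Mest*, *Cdkn1c*, *Phlda2*, *Ascl2*, *Grb10*, *Airn*, *Gnas*, *Sfmbt2*; 57.9%) and lower in 0, against 16.2% and 8.86% of 8966 genes. iXEN cells were higher than iTSCs in 2 of 20 members (*Dlk1*, *Impact*; 10%) and lower in 8 (*Meg3*, *Mest*, *Cdkn1c*, *Phlda2*, *Ascl2*, *Grb10*, *Plagl1*, *Slc38a4*; 40%), against 12.2% and 13.9% of 9038 genes.

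The VE-like against ExE-like contrast and its 2D counterpart, iXEN cells against iTSCs, share no cells. Of the 9 members called in 3D, 6 were called the same way in 2D (*Meg3*, *Cdkn1c*, *Phlda2*, *Ascl2*, *Grb10*, *Slc38a4*; 66.7% of the 3D and 60% of the 2D calls), and 0 the opposite way. Over all genes these shares were 50.1% and 42.7%, and 49 genes went the opposite way, of 2007 called in 3D and 2353 in 2D. For the 5-Factor against the Kermit line, 5 members went the same way in 3D and 2D (*Peg3*, *Sgce*, *Cdkn1c*, *Airn*, *Sfmbt2*; 55.6% of the 3D and 45.5% of the 2D calls) and 2 the opposite way (*Mest*, *Grb10*). Over all genes 41.9% of the 3D and 39% of the 2D calls went the same way. The opposite way went 52 genes, of 2097 called in 3D and 2250 in 2D. For the iGATA6 against the Kermit line, 5 went the same way (*Peg3*, *Mest*, *Zdbf2*, *Airn*, *Sfmbt2*; 50% of the 3D and 55.6% of the 2D calls) and 0 the opposite way. The shares over all genes were 60% and 53.8% there, so the members' shares were near or under them. Of all genes, 47 went the opposite way there, of 2824 called in 3D and 3147 in 2D.

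**Figure D4:**
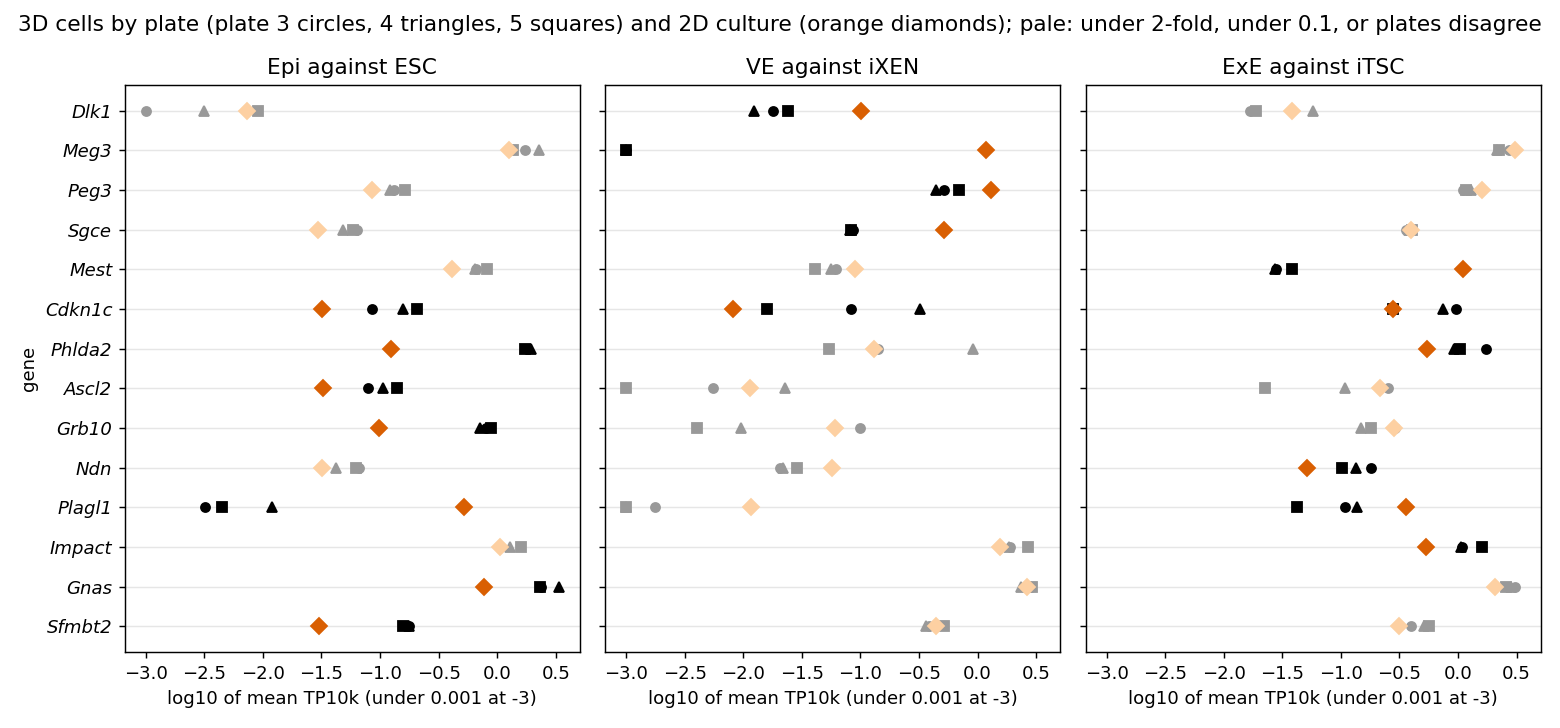
Mean TP10k (log10 axis) of the 14 members called in at least 1 comparison of 3D with 2D cells, by lineage, with black points for plates 3, 4 and 5 and orange diamonds for the 2D culture, pale where not called. *Plagl1* lies far to the right in 2D for Epi against ESC, *Meg3* and *Sgce* for VE against iXEN and *Mest* for ExE against iTSC.

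Between 3D and 2D cells of 1 line, culture, plate and library differ together and cannot be told apart. For Epi-like cells against ESCs this holds for doxycycline too, which the methods describe for the 3D culture and not for the 2D ESCs. Epi-like cells were higher than ESCs in 6 of 17 members (*Cdkn1c*, *Phlda2*, *Ascl2*, *Grb10*, *Gnas*, *Sfmbt2*; 35.3%) and lower in 1 (*Plagl1*; 5.88%), against 9.89% and 6.43% of 8673 genes. *Grb10* stood 8.2-fold higher (7.24- to 9.14-fold by plate) and *Sfmbt2* 5.68-fold higher (5.23- to 5.93-fold). VE-like cells were higher than iXEN cells in 1 of 15 members (*Cdkn1c*; 6.67%) and lower in 4 (*Dlk1*, *Meg3*, *Peg3*, *Sgce*; 26.7%), against 3.35% and 5.47% of 8487 genes. That call of *Cdkn1c* was lost without plate 4, which holds the cell of 29.2 TP10k. ExE-like cells were higher than iTSCs in 4 of 20 members (*Cdkn1c*, *Phlda2*, *Ndn*, *Impact*; 20%) and lower in 2 (*Mest*, *Plagl1*; 10%), against 10.6% and 7.85% of 9097 genes. The calls of *Cdkn1c* and *Phlda2* there were lost without plate 3, that of *Ascl2* in Epi-like cells against ESCs without plate 5, and that of *Impact* in ExE-like cells without plate 5.

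Within the ExE-like block, 4 members ran together across cells. *Slc38a4* and *Sfmbt2* had a Spearman coefficient of 0.52 across the ExE-like cells, *Phlda2* and *Slc38a4* 0.46, *Phlda2* and *Sfmbt2* 0.41 and *Cdkn1c* and *Phlda2* 0.38. *Slc38a4* was found in 80.6% of the cells with *Phlda2* and in 39.2% of those without. The same genes rose with the summed ExE markers (0.46 for *Slc38a4*, 0.37 for *Sfmbt2*, 0.36 for *Phlda2* and 0.29 for *Cdkn1c*), and *Gnas* went against them (-0.30). These cells share 1 pool and differ in gene number, with which *Sfmbt2* had a coefficient of 0.31 and *Slc38a4* one of 0.25, so the values are a description.

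Of the 16 genes listed for upkeep of the imprint, 0 were higher and 4 lower in VE-like than in Epi-like cells (*Zfp57*, *Dppa3*, *Tet1*, *Setdb1*), and 0 were higher and 6 lower in ExE-like cells (*Zfp57*, *Dppa3*, *Dnmt3l*, *Dnmt3a*, *Tet1*, *Tet2*). The shares over all genes were 15.7% higher and 15.7% lower in VE-like cells, and 14.5% higher and 8.36% lower in ExE-like cells. In 2D, 2 of the 16 were higher and 8 lower in iXEN cells than in ESCs, against 20% and 15% of all genes. In iTSCs 1 was higher and 3 were lower than in ESCs, against 16.2% and 8.86%. *Trim28* was 15.9, 7.98 and 9.92 TP10k in Epi-like, VE-like and ExE-like cells and 24.9, 5.65 and 12.7 in ESCs, iXEN cells and iTSCs. *Zfp57* was 2.26, 0.656 and 0.744 TP10k in Epi-like, VE-like and ExE-like cells and 2.49, 0.566 and 2.19 in ESCs, iXEN cells and iTSCs, so it was low in the iGATA6 line in both settings. *Dppa3*, which shields methylation in the zygote, was 1.96 in Epi-like cells and 0.341 in ESCs and no more than 0.0521 elsewhere. *Zfp445* stayed between 0.235 and 0.31 in all groups. The cofactor *Dnmt3l* was highest in iXEN (4.51) and VE-like cells (2.75) and lowest in ExE-like cells (0.346). The de novo methyltransferase *Dnmt3b* was highest in iTSCs (3.56).

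Among 37 further imprinted genes that were measured, 14 reached the minimum level in VE-like or Epi-like cells, with 2 higher in VE-like cells (*Igf2r*, *Mcts2*) and 5 lower (*Slc22a18*, *Trappc9*, *Copg2*, *Cobl*, *Ddc*). In ExE-like against Epi-like cells 17 reached it, with 5 higher (*Igf2r*, *Mcts2*, *Ppp1r9a*, *Pon2*, *Qpct*) and 4 lower (*Slc22a18*, *Cobl*, *Ddc*, *Pde4d*). The same shares over all genes (15.7% and 15.7%, then 14.5% and 8.36%) are the background of these counts. *Pon2* and *Ppp1r9a*, neighbours of *Sgce*, were 0.366 and 0.172 TP10k in ExE-like cells and 0.0241 and 0.0726 in Epi-like cells. In iXEN cells, where *Sgce* was 0.516, they were 0.0337 and 0.0941, and in iTSCs 0.225 and 0.104. *Cobl* and *Ddc*, neighbours of *Grb10*, were 0.717 and 0.232 in Epi-like and 0.014 and 0.0385 in VE-like cells. In ESCs they were 0.742 and 0.849, where *Grb10* was 0.0977, and in iTSCs 0.0246 and 0.0603, where *Grb10* was 0.284. *Copg2*, which overlaps *Mest* on the other strand, was 0.513, 0.163 and 0.555 in Epi-like, VE-like and ExE-like cells. Its value thus did not share the low *Mest* of ExE-like cells. Reads over the stretch that both cover cannot be told apart without strand. For the pair left out here, *Igf2* was 6.53 TP10k in ExE-like cells and 7.43 in iTSCs, whereas *H19* was 0.0441 and 71.3.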

How the data were processed

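Single cells were sorted into wells and read by SMART-seq2, which copies whole mRNAs, keeps no strand and adds no molecular identifiers. According to the methods, the authors used bcl2fastq 2.20, ran kallisto on mouse transcripts (Gencode vM16 on GRCm38), summed them by gene with tximport, and removed ribosomal, mitochondrial and pseudogenes. The authors deposited TPM values for 20999 genes in 1931 wells. From these, wells in which 2500 or more genes were above 0 were taken as cells and rescaled to 10000 (TP10k); 39 wells without any value fell out. Members and lists were chosen with earlier results of these data known. All members were named, and so were genes that a result turned on. Of the upkeep and further imprinted genes, those called in VE-like or ExE-like against Epi-like cells were named. Their calls in the other comparisons were not listed by name. The single cells described were chosen after their values were seen. With 1 sample per condition no test was made. The rule of size (2-fold, 0.1 TP10k, 3 plates one way) was tested on simulated data. Alternatives changed the minimum of genes, the scale, the mean, the minimum level, the fold, the plates and the cells used. Python 3.11.15, numpy, pandas, scipy and matplotlib were used.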

Additional observations from a re-analysis of the deposited data

Results flagged for a closer look

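*Mest* and *Grb10* moved in opposite directions in the same contrast of ESC lines, 5-Factor against Kermit, in 3D and in 2D. Of all genes, 52 did so, of 2097 called in 3D and 2250 in 2D. *Mest* was 22.6-fold lower in ExE-like than in Epi-like cells and 2.67-fold higher in iTSCs than in 2i/LIF ESCs. *Grb10* was 3.88-fold lower and 2.9-fold higher in the same comparisons. Neither 2D difference was called with a fold of 3. Between 3D and 2D, *Mest* was called in the 5-Factor line alone (35.2-fold) and *Grb10* in the Kermit line alone (8.2-fold). In the 44 iTSCs led by Epi markers *Mest* was 0.477 TP10k, against 1.38 in those led by ExE markers and 0.412 in ESCs. *Peg3* was 1.55 in these 44 cells and 0.0848 in ESCs. Each setting is 1 sample of each line, so the difference between the settings was not tested, and culture, plate and library differ with it. By the methods, exposure to doxycycline differs with it too for the Kermit line.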

How the results depend on the processing

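No paired analysis was possible because the values come from no test and each condition is 1 sample. Over 9 comparisons, 76 values of members were called, and 24 of them stayed called under every one of the up to 13 alternatives run for them. A lower minimum mean of 0.02 TP10k could lose no call, and its 76 values are counted below as kept. The changes of the minimum mean and of the fold used the main means, so they could turn no value around. Of 896 recomputed values, 761 (84.9%) stayed called in their direction, 14.8% kept the direction and were no longer called, and 2 turned around. Both of these arose with no minimum of genes per cell: the log2 difference of *Phlda2* between ExE-like cells and iTSCs became -0.36, and that of *Meg3* between iTSCs and ESCs became -0.27. The cause was not tested. No difference could be computed for *Ascl2* between VE-like cells and the other 3D groups where its VE-like mean fell to 0 with the highest 1% of cells left out. Of the recomputed counts of called members, 96 stayed within 1.5 times the main count and 12 did not. With a minimum mean of 0.5 TP10k, under which fewer genes can be called, the count fell to 6 for VE-like and to 4 for ExE-like against Epi-like cells, to 5 for VE-like against ExE-like cells, to 4 for Epi-like cells against ESCs, to 3 for VE-like against iXEN cells, to 4 for iXEN cells and to 5 for iTSCs against ESCs, and to 5 for iXEN cells against iTSCs. With a fold of 3 it fell to 2 for ExE-like cells against iTSCs, to 7 for iTSCs against ESCs and to 6 for iXEN cells against iTSCs. With no minimum of genes it rose to 11 for Epi-like cells against ESCs. Just 21 ESCs had 5000 to 8500 genes, which limits the comparison at like gene number. Read depth cannot be recovered from TPM.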
